A study of Arabidopsis thaliana with 6 samples.

Results

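The 9 genes described here encode the bulk seed storage proteins of Arabidopsis thaliana: the cruciferins CRA1 (AT5G44120), CRU2 (AT1G03880) and CRU3 (AT4G28520), the cruciferin-like cupin gene AT1G03890, and the albumins SESA1 (AT4G27140), SESA2 (AT4G27150), SESA3 (AT4G27160), SESA4 (AT4G27170) and SESA5 (AT5G54740). They were taken by locus from a table of 27628 identifiers, and 9 of 9 loci were found. The table came from whole siliques, the seed pods, with 3 libraries labelled shp1 shp2 mrpl1 and 3 libraries of wild type (WT). Both groups were grown on half-strength Murashige and Skoog medium with sucrose under long days. The accession, the mutated sites, the silique age, the seed stage and the number of plants per library are not stated in the labels. Since no label ties the replicates to separate plants, p-values measure how these libraries vary, and that variation may be technical only.

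SHP1 and SHP2 encode MADS-box factors of the valve margin, and the name MRPL1 stands for a mitochondrial ribosomal protein. SHP1 averaged 28.95 ± 2.33 CPM in the mutant-labelled libraries and 41.12 ± 3.18 CPM in WT (SD, n = 3 each), where CPM is the read count scaled to a common library total with TMM factors. SHP2 averaged 106 ± 3.79 CPM in the mutant-labelled libraries and 107 ± 2.86 CPM in WT. MRPL1, taken as AT2G42710 from its reference product, averaged 17.1 ± 1.05 CPM in the mutant-labelled libraries and 14.5 ± 1.35 CPM in WT. SHP1 and SHP2 overlap genes on the other strand by up to 564 and 1756 bases, and no label gives the strand setting. SHP1 fell (edgeR adjusted p = 0.00242), SHP2 and MRPL1 were not called (edgeR adjusted p = 0.937 and 0.172), and every direction given here is between libraries as labelled.

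Cruciferins are globulins of the 12S class, made in the maturing embryo as precursors and assembled into hexamers, and the albumins belong to the 2S class of small, sulphur-rich proteins also known as napins. Both enter protein storage vacuoles, where vacuolar processing enzymes and other proteases cleave them, and both are broken down after germination to feed the seedling. Their genes are switched on late in seed development by B3 factors of the ABI3, FUS3 and LEC2 type, which recognise RY elements (core CATGCA), together with bZIP factors that recognise ACGT-core elements such as the G-box (CACGTG).

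The 2 families differ in gene structure and in sequence. In TAIR10.1 the 12S genes have 4 exons each and transcripts of 1520 to 1794 bases, while the 2S genes have 1 exon each and transcripts of 688 to 830 bases. SESA1 to SESA4 stand in a row on chromosome 4, plus strand, from 13607329 to 13614283, with 1309, 1720 and 1032 bases between neighbours. SESA5 lies alone on the minus strand of chromosome 5, from 22238358 to 22239187. CRU2 and AT1G03890 are neighbours on the plus strand of chromosome 1, separated by 1051 bases, CRU3 lies on the plus strand of chromosome 4 (14087556 to 14089796) and CRA1 on the minus strand of chromosome 5 (17756238 to 17758336). Coding sequences of SESA1 to SESA4 were 82.6% to 94.1% identical in pairs, the highest value being SESA2 with SESA3, whereas SESA5 was 69.2% to 70.1% identical to the other albumins. Among the 12S genes the closest pair was CRA1 and CRU2, at 76.4%, and AT1G03890 was 62.5% to 62.9% identical to the others.

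Promoters are shown for 4 genes because RY and G-box elements are known contact points of seed maturation factors, and because SESA3 and CRU3 were the most abundant members of their families, SESA2 fell and SESA5 did not pass the test. Each line gives the 250 bases before the annotated transcript start, 5′ to 3′ on the gene's own strand, read from the RefSeq TAIR10.1 genome. Capitals mark CATGCA and ACGTG on either strand, so that a G-box stands as CACGTG and overlapping elements as one longer run. The windows are chr4:13611546-13611795 (plus strand) for SESA3, chr4:13609091-13609340 (plus strand) for SESA2, chr5:22239188-22239437 (minus strand) for SESA5 and chr4:14087306-14087555 (plus strand) for CRU3.
SESA3: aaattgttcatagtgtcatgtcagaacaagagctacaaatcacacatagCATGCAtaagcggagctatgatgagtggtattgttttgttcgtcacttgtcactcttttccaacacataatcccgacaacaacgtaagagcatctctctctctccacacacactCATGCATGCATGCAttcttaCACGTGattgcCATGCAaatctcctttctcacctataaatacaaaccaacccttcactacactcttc
SESA2: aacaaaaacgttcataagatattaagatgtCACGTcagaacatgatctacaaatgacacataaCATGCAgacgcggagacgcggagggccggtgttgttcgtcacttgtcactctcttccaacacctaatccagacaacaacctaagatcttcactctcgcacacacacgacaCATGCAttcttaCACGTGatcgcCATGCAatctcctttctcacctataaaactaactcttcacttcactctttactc
SESA5: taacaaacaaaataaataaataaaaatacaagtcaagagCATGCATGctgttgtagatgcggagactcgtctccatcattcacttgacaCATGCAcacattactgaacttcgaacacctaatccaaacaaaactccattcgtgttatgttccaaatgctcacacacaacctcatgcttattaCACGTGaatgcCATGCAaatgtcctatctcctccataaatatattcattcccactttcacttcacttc
CRU3: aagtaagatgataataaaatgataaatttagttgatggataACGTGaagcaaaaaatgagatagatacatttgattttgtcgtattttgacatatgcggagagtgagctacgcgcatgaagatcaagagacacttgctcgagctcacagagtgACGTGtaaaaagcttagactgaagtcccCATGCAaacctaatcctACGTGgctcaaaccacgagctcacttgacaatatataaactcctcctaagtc

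CATGCA occurred on either strand in 8 of the 9 storage promoters, against 8.34% of 27418 promoter windows of the same length. CACGTG occurred in 5, all of them albumin genes, against 6.59% of windows. The shorter ACGTG, which every CACGTG contains, occurred in 6, the albumin genes and CRU3, against 23.1%. TGTAAAG, the prolamin box, occurred in 2, SESA1 among them, against 4.46%. In SESA3 the CATGCA matches overlap into a run from position −87, counting −1 as the base before the transcript start.

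The albumin promoters share one arrangement of these elements. In all 5 a CACGTG starts between positions −68 and −65 and is followed, after 5 bases, by a CATGCA, as the SESA3, SESA2 and SESA5 lines show. This spacing was searched for after the promoters were read: it occurred in 9 of the 27418 windows, 0.0328%, on either strand. The other 4 were AT2G28490, a cupin gene, AT1G54860, a gene for a GPI-anchored protein, AT2G38610 and PSB28. AT2G28490 and AT1G54860 fell in the mutant-labelled libraries (log2 fold changes of −0.30 and −0.33; edgeR adjusted p = 0.0065 and 0.0245), and AT2G38610 (0.08) and PSB28 (−0.0077) were not called. The arrangement was present in SESA5, which was not called, as in SESA2 and SESA3, which fell, and absent from the 12S genes, which fell. SESA1 to SESA4 stand in a row and are similar in sequence, so their matches may not be separate occurrences.

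Storage protein transcripts were the most abundant in these siliques. By mean CPM the 9 genes took ranks 1 to 6, 12, 13 and 17 of the 27628 identifiers, with SESA3 first and CRU3 second. Together they held 15.13%, 15% and 15.72% of all counts in mutant-labelled replicates 1 to 3, against 18.91%, 18.24% and 18.08% in WT replicates 1 to 3. The groups did not overlap, and the means were 15.3% ± 0.385 in the mutant-labelled libraries and 18.4% ± 0.44 in WT (SD, n = 3 each; exact permutation test over 20 assignments, two-sided, p = 0.1, the smallest p that 3 against 3 allows). Fewer embryo cells in the sample and less storage RNA per cell cannot be told apart in whole siliques.

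All 9 genes passed the expression filter, and in every library each of them held at least 39494 counts. Of the 9, 6 fell and 0 rose in the mutant-labelled libraries by edgeR's quasi-likelihood test at a Benjamini-Hochberg adjusted p under 0.05 over 20827 genes tested. Among all genes tested, 4.07% fell and 4.89% rose, 8.95% in all. At an unadjusted p under 0.05 no storage gene was higher either, and DESeq2 and limma voom also called 0 higher. The median log2 fold change was −0.31 for the 9 genes and −0.0016 for all genes tested. In 8 of the 9 genes every mutant-labelled library lay below every WT library, as in 12.3% of genes tested, and in 0 of the 9 every one lay above, as in 13.7% (25.9% without overlap in either direction).

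**Figure D1:**
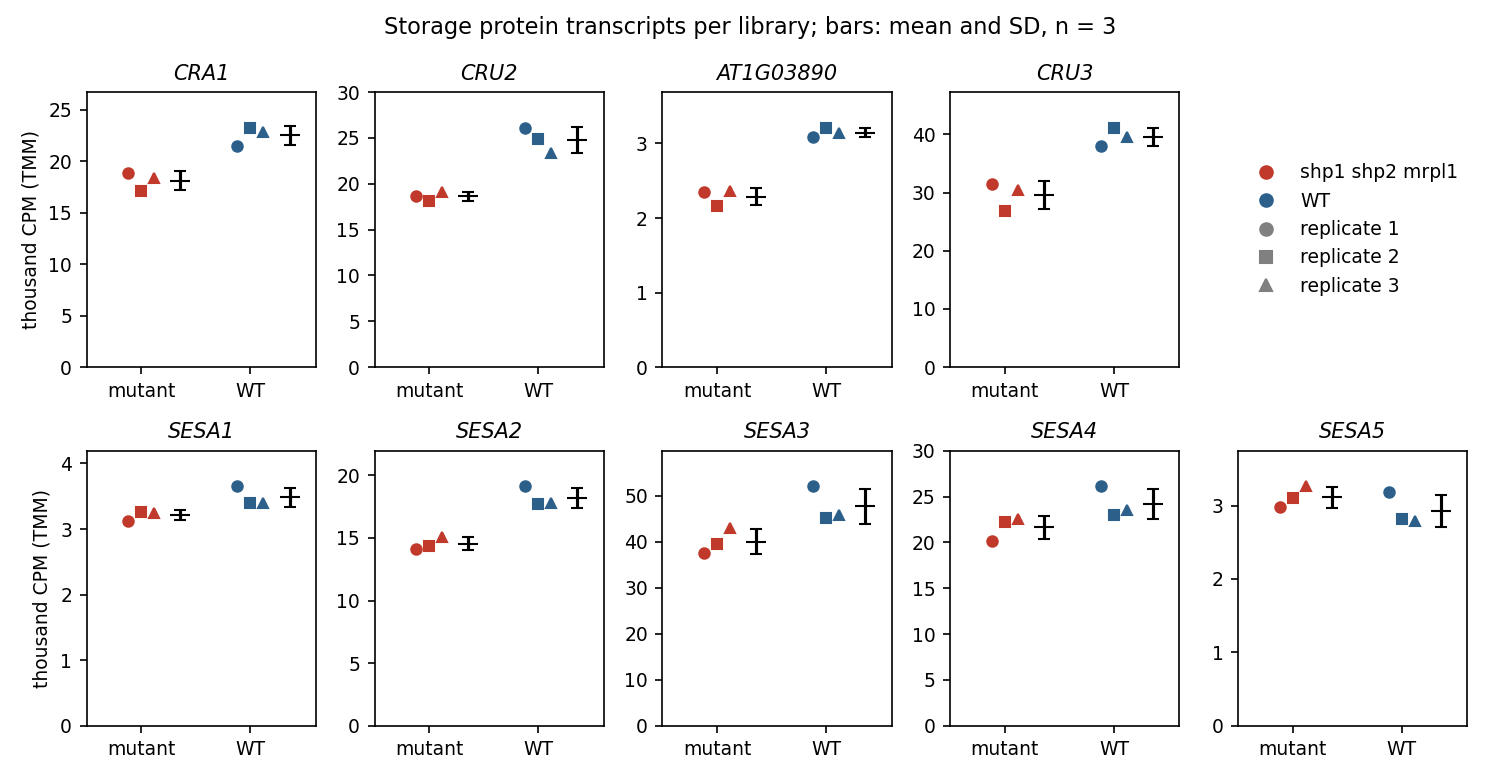
TMM-scaled CPM (axes in kilo-units, as labelled) of the 9 storage protein genes in each library (mutant-labelled left, WT right; marker shapes are replicate numbers, bars the mean and SD, n = 3), each panel with its own axis from 0. The mutant-labelled points lie below all WT points in 8 panels, and in the SESA5 panel the groups overlap.

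The cruciferins fell together. CRU3, the most abundant of them, stood at 31440, 26930 and 30510 CPM in mutant-labelled replicates 1 to 3, against 37940, 41130 and 39570 CPM in WT. The WT libraries were therefore all above the mutant-labelled ones, and the fitted level was 0.749 times WT (log2 fold change −0.42, SE 0.066; edgeR adjusted p = 0.0013). CRU2 had 18630, 18170 and 19100 CPM in the mutant-labelled libraries, against 26100, 24900 and 23340 CPM in WT. This was a fall to 0.752 times WT (log2 fold change −0.41, SE 0.058; edgeR adjusted p = 0.000575).

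CRA1, a 12S globulin gene, had 18840, 17110 and 18370 CPM in the mutant-labelled libraries, against 21450, 23230 and 22870 CPM in WT. With all libraries its fall was the smallest of the family, to 0.804 times WT (log2 fold change −0.31, SE 0.059, edgeR adjusted p = 0.00423). Without both replicates 1 this order did not hold, with CRA1 at −0.378 and CRU2 at −0.373. AT1G03890, a cupin gene with the 12S gene structure, was expressed far below the others, at 2343, 2163 and 2358 CPM in the mutant-labelled libraries, against 3084, 3209 and 3142 CPM in WT. It had the largest log2 fold change of the 9 genes, −0.46 (SE 0.057; edgeR adjusted p = 0.000237), or 0.728 times WT. The 4 genes of the 12S family were called in all 6 fits that each left out 1 library.

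Albumin transcripts were lower in part. SESA3, the most abundant transcript of the table, had 37590, 39390 and 43050 CPM in the mutant-labelled libraries, against 52000, 45140 and 45830 CPM in WT. The nearest libraries of the groups were closer than the SD of either group, and the fall to 0.839 times WT (log2 fold change −0.25, SE 0.07; edgeR adjusted p = 0.0389) was called with all libraries but in 1 of the 6 fits that left out 1. Its call was lost without mutant-labelled replicate 1 or 2 or any 1 WT replicate, at log2 fold changes between −0.29 and −0.19 (edgeR adjusted p between 0.0532 and 0.126). SESA2 had 14110, 14360 and 15100 CPM in the mutant-labelled libraries, against 19120, 17690 and 17800 CPM in WT. The fall, to 0.798 times WT (log2 fold change −0.33, SE 0.057; edgeR adjusted p = 0.00256), was called in each of the 6 fits.

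SESA4 had 20180, 22250 and 22500 CPM in the mutant-labelled libraries, against 26110, 22990 and 23510 CPM in WT. The lowest WT value was close to the highest mutant-labelled one, and the log2 fold change of −0.16 (SE 0.065) was not called (edgeR adjusted p = 0.164). SESA1, the least abundant of the chromosome 4 row, had 3125, 3257 and 3247 CPM in the mutant-labelled libraries, against 3650, 3398 and 3403 CPM in WT. It was not called either (log2 fold change −0.12, SE 0.056; edgeR adjusted p = 0.24).

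SESA5 was the 1 storage gene with a positive log2 fold change. It had 2978, 3101 and 3262 CPM in the mutant-labelled libraries, against 3181, 2817 and 2785 CPM in WT, so the groups overlapped through WT replicate 1. The log2 fold change was 0.09, with a 95% interval from −0.05 to 0.23 (edgeR adjusted p = 0.477).

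Levels of different genes were compared per transcript length. In CPM per kilobase of transcript, SESA3 led with 52090 ± 3620 in the mutant-labelled libraries and 62060 ± 4920 in WT (SD, n = 3 each). SESA4 followed with 31460 ± 1850 in the mutant-labelled libraries and 35180 ± 2430 in WT, then SESA2 with 19760 ± 698 and 24770 ± 1080. CRU3 (16520 ± 1330 in mutant-labelled, 22040 ± 889 in WT) was the highest 12S gene on this scale, ahead of CRU2 (11410 ± 285 and 15180 ± 848) and CRA1 (10460 ± 518 and 13010 ± 545). SESA1 (4566 ± 104 and 4955 ± 205), SESA5 (3751 ± 171 and 3527 ± 265) and AT1G03890 (1505 ± 71.4 and 2069 ± 41.3) stood lowest. Every pair of neighbours in this order differed, in either group, by more than the SD of each.

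The 12S family as a whole held 7.223%, 6.581% and 7.022% of counts in the mutant-labelled libraries, against 8.696%, 9.143% and 8.822% in WT. The 2S family held 7.906%, 8.42% and 8.701% in the mutant-labelled libraries, against 10.22%, 9.1% and 9.259% in WT. Neither family overlapped between the groups (exact permutation test, two-sided, p = 0.1 for each, the smallest possible). The ratio of 12S to 2S counts within a library, which no scaling affects, was 0.914, 0.782 and 0.807 in mutant-labelled replicates 1 to 3, against 0.851, 1.005 and 0.953 in WT replicates 1 to 3. Its groups overlapped, and the mean log2 ratio of −0.26 ± 0.12 in the mutant-labelled libraries lay below the −0.099 ± 0.12 in WT by more than either SD (n = 3 each), with p = 0.2 in the exact permutation test, two-sided, which cannot go below 0.1. Without both replicates 1 the difference in log2 ratio was −0.30, and the groups did not overlap. Log2 fold changes over all genes then declined more strongly with transcript length (Spearman's rho −0.45, against −0.25 with all libraries). The larger falls of the 12S genes were thus not shown to differ from those of the 2S genes as a family.

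**Figure D2:**
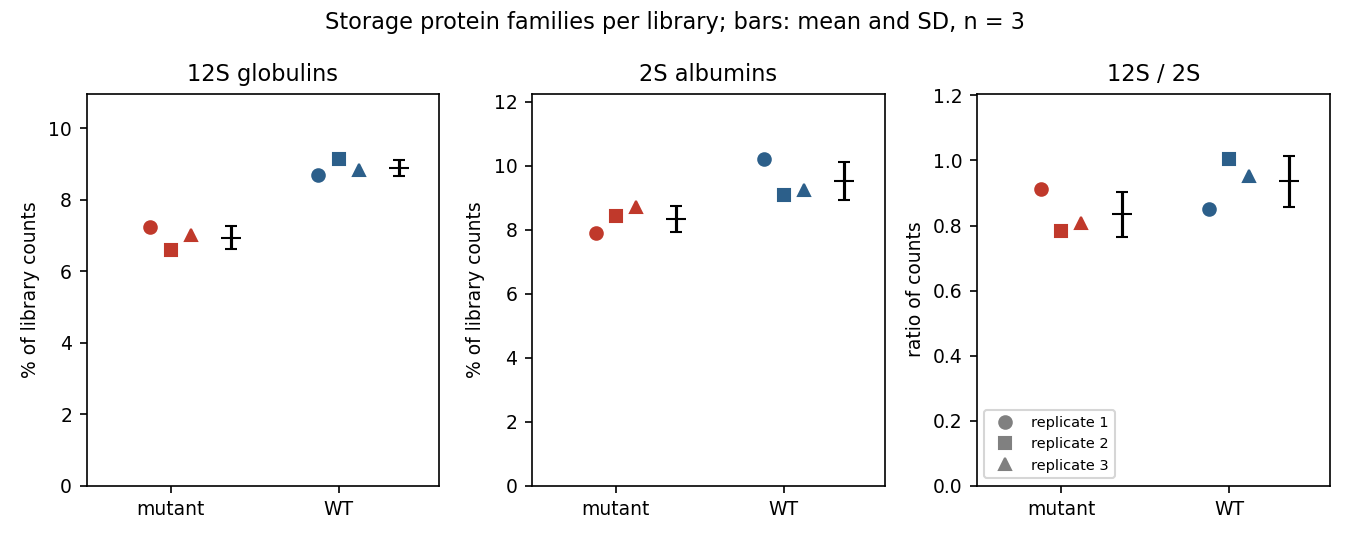
Share of each library's counts held by the 12S and the 2S genes, and the ratio of 12S to 2S counts, in each library (mutant-labelled left, WT right; bars the mean and SD, n = 3; axes start at 0). Both shares are lower in all mutant-labelled libraries, and in the ratio panel each replicate 1 (circle) lies toward the other group.

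Libraries of one group deviated from each other along transcript length, with replicate 1 of each group opposite in sign to replicates 2 and 3. Across 20733 genes the deviation of a library from its group mean had a Spearman's rho with transcript length of 0.52, −0.43 and −0.22 for mutant-labelled replicates 1 to 3 and −0.49, 0.42 and 0.24 for WT replicates 1 to 3, and log2 fold changes declined with length (rho −0.25; genes are not independent replicates). The 2S transcripts are shorter than the median of 1645 bases, and the 12S transcripts lie near it. After a correction for length, chosen after seeing the data, SESA1 (log2 fold change −0.21, edgeR adjusted p = 0.00362) and SESA4 (−0.26, edgeR adjusted p = 0.000333) fell too, SESA3 had −0.34, SESA2 −0.42 and SESA5 0.0040 (edgeR adjusted p = 0.976). That correction called 8 of the 9 genes lower, beside 7.44% of all genes tested. It was fitted to deviations from the mean of all 6 libraries, not from group means. It therefore also removed any part of the group difference that follows length.

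Without both replicates 1, log2 fold changes over all genes declined more strongly with length (Spearman's rho −0.45). In that fit the fold changes of all 5 albumins were shifted upward. SESA3 (log2 fold change −0.14, edgeR adjusted p = 0.071) lost its call, SESA4 and SESA1 stood at −0.056 and −0.065, and SESA5 rose (0.18, edgeR adjusted p = 0.00696), with 15.8% of all genes tested lower and 15.3% higher. With both steps combined, 8 of the 9 genes were lower, beside 8.94% of all genes tested, and SESA5 stood at −0.014 (edgeR adjusted p = 0.902). The 4 genes of the 12S family stayed between −0.53 and −0.31 under each of these 3 treatments and were called lower in all of them. So was SESA2, at −0.48 to −0.27.

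**Figure D3:**
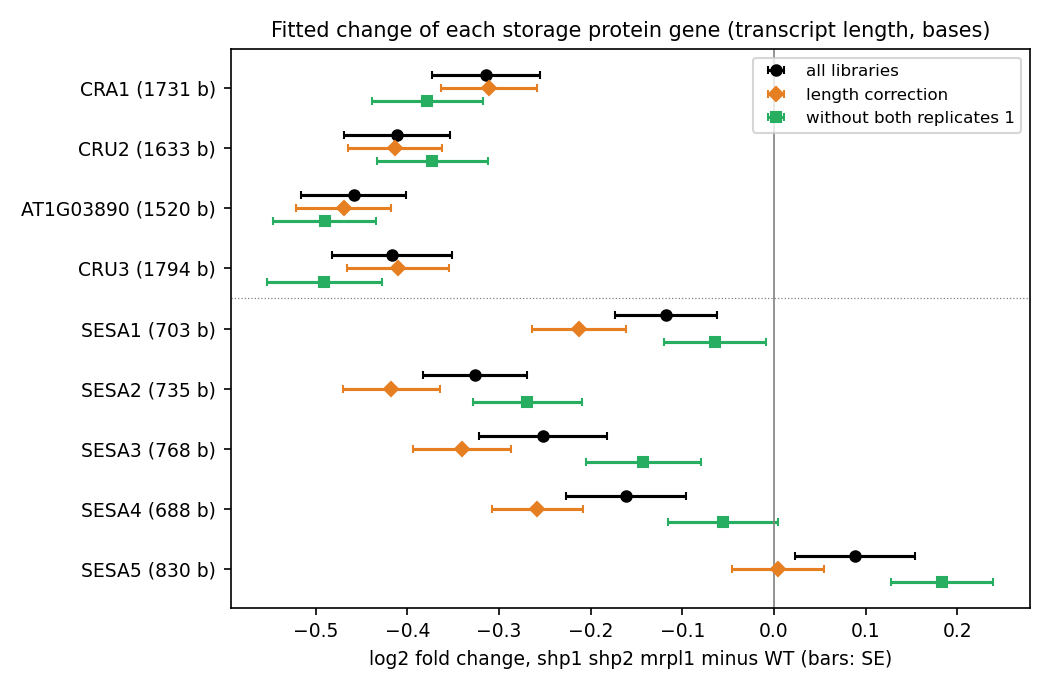
Log2 fold change of each storage gene, mutant-labelled minus WT, with its SE, for all libraries, with the length correction and without both replicates 1; the number beside each name is transcript length in bases. Values of the 12S genes stay between −0.49 and −0.31, and those of the 2S genes shift left with the correction and right without replicates 1.

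Shares within a family compare transcripts of like length, and were computed after the values were seen. SESA5 held 3.82%, 3.77% and 3.74% of albumin counts in the mutant-labelled libraries, against 3.06%, 3.06% and 2.98% in WT. SESA2 held 18.1%, 17.4% and 17.3% in the mutant-labelled libraries, against 18.4%, 19.2% and 19.1% in WT. SESA4 (26.2% ± 0.675 in mutant-labelled libraries, 25.1% ± 0.103 in WT) and SESA1 (3.9% ± 0.149 and 3.62% ± 0.0957) did not overlap either, and SESA3, at 48.5% ± 0.82 and 49.4% ± 0.519 (SD, n = 3 each), overlapped between the groups. Within the 12S family CRA1 held 26.4% ± 0.238 in the mutant-labelled libraries and 25% ± 0.76 in WT, and AT1G03890 held 3.33% ± 0.0396 and 3.5% ± 0.0339. CRU2 and CRU3 overlapped. Each of the 6 shares without overlap had p = 0.1 in the exact permutation test, two-sided, the smallest possible, and an adjusted p of 0.15 over the 9 shares. Shares of a family add up to its whole, so a rise of some forces a fall of others. The 6 are therefore not separate results, and no background over all genes was computed for this measure.

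Counts of the albumins on chromosome 4 carry one uncertainty. SESA1 was the 1 storage gene with counts that were not whole, in 4 of the 6 libraries, and no label says how reads with several matches were divided. A search with 50-base windows found no stretch that a storage transcript shares with any other transcript. Of 25-base windows, SESA3 shared 16.4%, SESA2 12.1%, SESA4 7.08% and SESA1 5.74% with one another, SESA5 and AT1G03890 shared 0, and the other 12S genes shared at most 0.186%. None of the 9 genes overlapped another annotated gene.

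Genes of related function were read from lists chosen with earlier results of these data known, and their counts stand beside the 4.07% lower and 4.89% higher among all genes tested. Among 6 other cupin genes, whose products resemble the globulins, 3 fell, 1 rose and 2 were not called, with a median log2 fold change of −0.40. The count lower was 5 without WT replicate 1, where 3002 genes of the whole table were called in either direction, against 1865 with all libraries. AT4G36700, a vicilin-like gene, had 1259, 1178 and 1152 CPM in the mutant-labelled libraries, against 1588, 1758 and 1728 CPM in WT (log2 fold change −0.50, SE 0.062; edgeR adjusted p = 0.000237). AT2G28490, which carries the albumin-type promoter arrangement, had 1557, 1395 and 1430 CPM in the mutant-labelled libraries, against 1755, 1843 and 1798 CPM in WT. PAP85, another vicilin-like gene, was not called (−0.19, edgeR adjusted p = 0.083). The pair AT1G07750 and AT2G28680 moved apart: AT1G07750 rose (0.39, edgeR adjusted p = 0.00203), and AT2G28680 fell at a very low level, with 0.432, 0.657 and 0.382 CPM in the mutant-labelled libraries, against 1.07, 1.87 and 1.26 CPM in WT. The call of AT2G28680 was lost without mutant-labelled replicate 3 or WT replicate 2 (edgeR adjusted p of at most 0.0822).

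Of 10 other late maturation genes of the embryo, 4 fell and 1 rose, with a median of −0.18. Without mutant-labelled replicate 2, 2 were lower, and without WT replicate 1, 2 were higher. With the length correction 7 were lower, beside 7.44% of all genes tested. The falls included 3 oleosin genes, which coat seed oil bodies: OLEO1 (−0.35, edgeR adjusted p = 0.0045), OLEO4 (−0.31, edgeR adjusted p = 0.002) and AT3G01570 (−0.34, edgeR adjusted p = 0.0151). M17, a late embryogenesis abundant gene, was the 4th (−0.79, edgeR adjusted p = 0.0282). The other listed oleosin genes, OLEO2 (−0.16, edgeR adjusted p = 0.367) and OLEO3 (−0.18, edgeR adjusted p = 0.152), were not called. GEA6, also known as EM6, a late embryogenesis abundant gene of desiccating seed, rose: it had 275, 382 and 342 CPM in the mutant-labelled libraries, against 154, 111 and 113 CPM in WT (log2 fold change 1.40, SE 0.15; edgeR adjusted p = 0.000493). EM1, its close relative, stood at 302 ± 12.3 CPM in the mutant-labelled libraries and 300.4 ± 24.3 CPM in WT (SD, n = 3 each). The call of AT3G01570 was lost without mutant-labelled replicate 2, and that of M17 without replicate 2 or 3 of either group (edgeR adjusted p of at most 0.149).

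Of 17 regulators of storage genes tested, 1 fell, 4 rose and 12 were not called, with a median of −0.056. The count lower was 2 without mutant-labelled replicate 1 or WT replicate 1. It was 5 with the length correction (4 higher), beside 7.44% of all genes tested lower. Without both replicates 1 it was 4 (5 higher), beside 15.8% lower and 15.3% higher. DPBF2, also known as bZIP67, a bZIP factor of seed maturation, had 62.8, 65.1 and 67.2 CPM in the mutant-labelled libraries, against 91.1, 88.5 and 86.5 CPM in WT. Its fall (log2 fold change −0.45, SE 0.067; edgeR adjusted p = 0.000964) lay within the range of the 12S genes. The B3 factor genes ABI3 (−0.37, edgeR adjusted p = 0.0789), FUS3 (−0.06, edgeR adjusted p = 0.674) and LEC2 (0.07, edgeR adjusted p = 0.851) were not called. ABI3, with a transcript of 3109 bases, had 144.7, 115 and 115.6 CPM in the mutant-labelled libraries, against 132.8, 175.5 and 176.3 CPM in WT. Its groups overlapped only between the replicates 1. The bZIP genes BZIP53 (−0.17), BZIP25 (0.01) and BZO2H1 (−0.06) were not called either.

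The regulators that rose were HSFA9, a heat shock factor of seeds, MYB118, a factor of the endosperm that restrains maturation genes there, NF-YC2 and LEC1, both subunits of NF-Y factors. HSFA9 had 8.92, 10.8 and 8.17 CPM in the mutant-labelled libraries, against 5.12, 5.95 and 4.69 CPM in WT (log2 fold change 0.82, SE 0.141; edgeR adjusted p = 0.00253). For MYB118 the log2 fold change was 0.47 (edgeR adjusted p = 0.00145) and for NF-YC2 0.50 (edgeR adjusted p = 0.000493). LEC1 rose by 0.29 (edgeR adjusted p = 0.0366), a call lost without replicate 2 or 3 of either group. NF-YC2 overlaps a gene on the other strand by 1417 bases and shared 95.1% of its 50-base windows with AT1G56180, and HSFA9 overlaps one by 303 bases, so both counts are uncertain. Among 6 repressors of the maturation programme 1 fell and 0 rose: HSL1, also known as VAL2, fell by 0.45 on the log2 scale (edgeR adjusted p = 0.0125), a call lost without replicate 2 or 3 of either group. Its relatives HSI2 (−0.05) and VAL3 (−0.11), the chromatin remodeller gene PKL (−0.10) and ASIL2 (0.09) were not called. Without both replicates 1 the count of repressors lower was 3, beside 15.8% of all genes tested, and PKL fell (−0.29, edgeR adjusted p = 4.7e-05). With the length correction the count was 1, beside 7.44% of all genes tested, and PKL stood at 0.036.

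Of 23 genes tested that process and sort storage proteins, 2 fell, 3 rose and 18 were not called, with a median of −0.066. The count lower was 1 in each of the 6 fits without 1 library. It was 5 with the length correction, beside 7.44% of all genes tested, and 8 without both replicates 1, beside 15.8%. The count higher stayed at 3 with the correction. ALPHA-VPE, a vacuolar processing enzyme mainly of vegetative organs, had 236.4, 236.0 and 236.1 CPM in the mutant-labelled libraries, against 149, 150.5 and 143 CPM in WT (log2 fold change 0.68, SE 0.06; edgeR adjusted p = 1.56e-05). DELTA-VPE, the enzyme of the seed coat, rose by 0.30 (edgeR adjusted p = 0.00933), a call lost without WT replicate 3, and it overlaps a gene on the other strand by 220 bases. BETA-VPE, the main enzyme of storage protein cleavage in the embryo, was not called, at 476.5 ± 8.1 CPM in the mutant-labelled libraries and 531 ± 13.4 CPM in WT (SD, n = 3 each; log2 fold change −0.16, edgeR adjusted p = 0.11).

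The aspartic protease genes also moved apart. AT4G04460 had 553, 563 and 576 CPM in the mutant-labelled libraries, against 368, 374 and 351 CPM in WT (log2 fold change 0.63, SE 0.058; edgeR adjusted p = 2.13e-05). It overlaps a gene on the other strand by 214 bases and shared 9.23% of its 50-base windows with AT4G04470. AT1G62290 fell by 0.33 on the log2 scale (edgeR adjusted p = 0.00246), and APA1 did not pass (0.0093). BETA-TIP, a channel of the storage vacuole membrane, fell by 0.22 on the log2 scale (edgeR adjusted p = 0.038), a call lost in each of the 6 fits without 1 library. It overlaps genes on the other strand by up to 564 bases and shared 3.74% of its 50-base windows with AT1G17820. TIP3;1 was not called (−0.10). It overlaps a gene on the other strand by 290 bases and shared 21.3% of its 50-base windows with AT1G73200. The sorting receptor genes VSR1 (−0.0044), VSR3 (−0.15) and VSR4 (−0.07) and the retromer gene MAG1 (0.08) were not called. VSR3 and VSR4 shared 15.3% and 14.8% of their 50-base windows with each other. MAG1 overlaps genes on the other strand by up to 699 bases, so these counts are uncertain too.

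**Figure D4:**
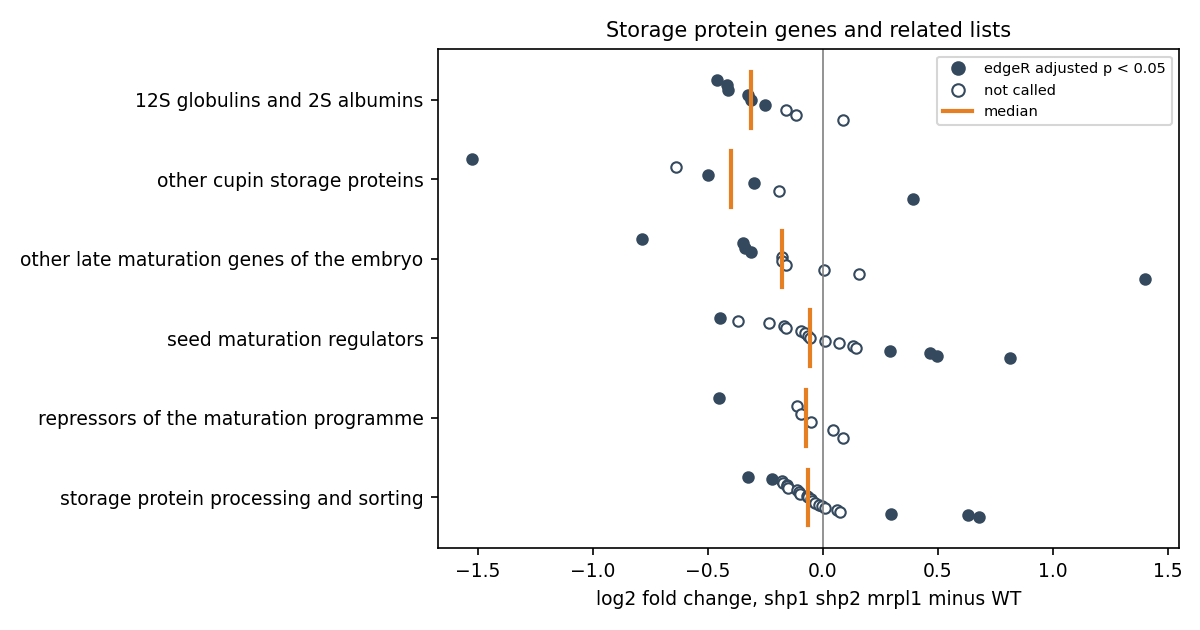
Log2 fold change, mutant-labelled minus WT, of the 9 storage genes and of the tested genes of 5 related lists; filled points passed edgeR at an adjusted p under 0.05, and orange bars are medians. Medians are −0.31 for the storage genes, −0.40 for other cupins and −0.18 for other late maturation genes, −0.056 for regulators, −0.073 for repressors and −0.066 for processing and sorting.

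Markers of the tissues that make up a silique were measured beside these changes. Their called counts stand beside the 4.07% lower and 4.89% higher among all genes tested. Except for the other late maturation genes, these counts were not followed through the fits that left out libraries. Summed over the list, the other late maturation genes of the embryo stood at 19400 to 21700 CPM in the mutant-labelled libraries and 23000 to 26400 CPM in WT. Early embryo markers (8 genes) summed to 33.3 to 38.3 CPM in the mutant-labelled libraries and 39 to 39.5 CPM in WT, with 1 of 6 tested lower. That gene, PLT1, was at a low level, 1.77 ± 0.212 CPM in the mutant-labelled libraries and 2.99 ± 0.0885 CPM in WT. Seed coat markers (9 genes) summed to 1450 to 1560 CPM in the mutant-labelled libraries and 1290 to 1360 CPM in WT, with 2 of 9 higher. The largest term was TT10, which was not called, at 801 ± 57.2 CPM in the mutant-labelled libraries and 727 ± 33.4 CPM in WT. Endosperm markers (9 genes) summed to 60.4 to 70.8 CPM in the mutant-labelled libraries and 43.6 to 48.5 CPM in WT, with 2 of 7 tested higher, RGE1 and ALE1, and 1 lower, PHE1. PHE1 was also at a low level, 2.64 ± 0.948 CPM in the mutant-labelled libraries and 5.8 ± 0.647 CPM in WT. Valve and margin markers (10 genes) summed to 306 to 333 CPM in the mutant-labelled libraries and 346 to 361 CPM in WT, with 5 of 10 lower. That list holds SHP1, which is 1 of the 5, and SHP2, the largest term of the sum. Flower and pollen markers (6 genes) summed to 98 to 108 CPM in the mutant-labelled libraries and 86.7 to 92 CPM in WT, with 1 of 6 higher. AP3, which was not called, was the largest term, at 79.2 ± 6.39 CPM in the mutant-labelled libraries and 73.4 ± 3.83 CPM in WT. No listed marker was at 0 in every library, and the part of tissue make-up or seed stage in the storage gene result was not tested.

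The genes whose pattern over the 6 libraries was most like the mean of the standardised storage gene levels were LTP2, a lipid transfer protein gene (Pearson's r 0.997), CTL2, for a chitinase-like protein (0.997), BCAT4, an aminotransferase gene of glucosinolate synthesis (0.997), AT4G34550, an F-box gene (0.996), and VIT1, the vacuolar iron transporter gene of the embryo (0.995). They were the top of 18142 genes compared, and 16 genes reached 0.99, over 6 libraries that share the same group difference. LTP2 had 617, 639 and 675 CPM in the mutant-labelled libraries, against 813, 753 and 747 CPM in WT, with WT replicate 1 the highest, as in SESA3. In CRA1, CRU3 and AT1G03890 WT replicate 1 was instead the lowest WT library. Within WT the mean pattern therefore does not describe those 12S genes. VIT1 had 21.6, 22.1 and 23.8 CPM in the mutant-labelled libraries, against 33.8, 28.4 and 29.0 CPM in WT (log2 fold change −0.44, SE 0.09; edgeR adjusted p = 0.00808).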

How the data were processed

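RNA was sequenced from siliques in 6 libraries, 3 labelled shp1 shp2 mrpl1 and 3 WT, grouped by the genotype label with replicate numbers from the titles. The authors deposited 1 table of estimated counts per transcript identifier, of which 2.95% to 3.47% per library were not whole (tolerance 1e-09). Library totals were 20563995, 17857873 and 20957661 for mutant-labelled replicates 1 to 3 and 20883220, 21603816 and 19969915 for WT replicates 1 to 3. Tools listed in the submitters' processing notes, with no role given, are HISAT2, featureCounts 1.6.3, Trimmomatic 0.39, DESeq2 and FastQC 0.11.9. The genome build, annotation and strand setting are not given in the sources used here.

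Counts were rounded and fitted over all genes with edgeR 4.0.16 in R 4.3.3 (TMM, default filter with minimum count 10 and total 15, robust quasi-likelihood test, genotype only, Benjamini-Hochberg adjustment, threshold 0.05). SE was taken as |log2 fold change| over the root of the F statistic. The fit was tested on simulated counts. Alternatives were DESeq2 1.42.0, limma 3.58.1 voom, other scalings and filters, the replicate block and leaving out libraries. The length correction and leaving out both replicates 1 were chosen after seeing the data. The correction was a loess of each library's deviation from the mean of all 6 libraries on transcript length (span 0.4, as offsets).

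Of 27628 identifiers, 27419 matched TAIR10.1 transcripts, the source of symbols, lengths and promoters (Biopython 1.88 for coding alignments). The storage genes and lists were chosen with earlier results of these data known. Named genes are the 9 members, the genotype's 3 genes, up to 4 per list by smallest adjusted p plus further called ones to 8, and the 5 most similar in pattern. Others were named after their values were seen. Deviations of same-numbered libraries correlated at −0.36, −0.19 and −0.12. Since the length trend ran opposite in same-numbered libraries, these values cannot tell whether the numbers pair the samples. Promoter sequences of 5 of the 9 genes are not reported here.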

Additional observations from a re-analysis of the deposited data

How the results depend on the processing

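The count of 6 storage genes lower stayed between 5 and 8 under the scalings, filters, tests, length corrections and omissions tried, and was 5 or 6 when 1 library was left out. It became 3 (CRU2, AT1G03890 and CRU3) with the replicate number as a block, beside 1.54% of all genes tested. There CRA1, SESA2 and SESA3 had edgeR adjusted p values of 0.0803, 0.0636 and 0.215. Whether the numbers pair the samples is not known. Averaging same-numbered differences gives −3.13 and −0.17 for the share and the ratio, as in the unpaired comparison by construction, so this block says nothing of their stability. The count of storage genes higher, 0, became 1 (SESA5) without both replicates 1. SESA5 had a log2 fold change of −0.014 with the length correction and without both replicates 1. SESA3 also lost its call with upper-quartile scaling (edgeR adjusted p = 0.0706).

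Over all genes, 1865 were called, and 795 with the replicate block, 4123 with limma voom, 3295 with the length correction, 6492 without both replicates 1, 4019 with both of these, and between 1004 and 3002 when 1 library was left out. The cause of these shifts was not tested. The difference in the log2 ratio of 12S to 2S counts was −0.17 and became −0.30 without both replicates 1, where the exact permutation test cannot go below p = 0.333. The difference in the share of counts, −3.13 percentage points, stayed between −3.35 and −2.80. With the replicate block, 0 of the other late maturation genes, 0 of the repressors and 0 of the processing and sorting genes were lower. At 3 libraries per group, permutation tests of single quantities cannot reach the threshold.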
